A study of Homo sapiens with 9 samples.

Results

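The NRF2 and glutathione-thioredoxin genes are 10 genes of the oxidative stress defence, found by their GENCODE 29 symbols among the 58735 genes of the deposited tables: NFE2L2, KEAP1, GSR, SLC7A11, GCLC, GCLM, TXNRD1, NQO1, HMOX1 and SRXN1. RNA was sequenced from HEK293T, an established human line of embryonic kidney origin with the SV40 large T antigen. Cells received 10 nM of an siRNA for 36 h, with Lipofectamine RNAiMAX in every group: the Silencer Select Negative Control No. 2 (control), an siRNA against PHF12, or an siRNA against SUDS3, with 3 libraries each. The labels name 1 siRNA per target, so each group is a single siRNA, and the origin of the replicates (1 culture or several) is unstated. The p-values therefore measure the spread between these libraries, which may be technical. The comparisons ask how transcripts depend on PHF12 and SUDS3, which belong to repressive histone deacetylase complexes built on SIN3.

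NFE2L2 encodes NRF2, a transcription factor that binds antioxidant response elements near its target genes as a dimer with small MAF proteins. KEAP1 holds NRF2 in the cytoplasm and hands it to the CUL3 ubiquitin ligase, and oxidants or electrophiles that modify KEAP1 let NRF2 accumulate. NRF2 is controlled largely through its protein, so the level of its transcript is not a measure of its activity. Among the classical targets, SLC7A11 imports cystine, GCLC and GCLM form the ligase of the rate-limiting step of glutathione synthesis, and GSR reduces oxidised glutathione with NADPH. TXNRD1 reduces thioredoxin, NQO1 reduces quinones, HMOX1 degrades haem, and SRXN1 repairs oxidised peroxiredoxins.

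The core of the antioxidant response element, TGACNNNGC, was searched on both strands from 250 bases before to 50 bases after the start of each gene in RefSeq's promoter table (GRCh38.p14). The table held 7 of the 10 genes, all except GSR, SLC7A11 and HMOX1. Matches were found in GCLM and TXNRD1, which are 2 of those 7, and in 14.3% of the 16786 promoters of genes tested. Sequence further from the start was not searched, so a gene without a match here may have one elsewhere. The windows are shown because they match the core of the element that NRF2 binds. Capitals mark the motif, read along the strand of the gene, and a match is not evidence of binding. The GCLM window is chr1:93909446-93909474 (minus strand, motif on the opposite strand), and the TXNRD1 windows are chr12:104215670-104215698 (plus strand) and chr12:104215761-104215789 (motif on the opposite strand).
GCLM: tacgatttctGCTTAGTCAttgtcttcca
TXNRD1 upstream: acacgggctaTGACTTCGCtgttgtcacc
TXNRD1 at the start: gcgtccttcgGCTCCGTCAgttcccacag

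The libraries held 37962926 to 50946148 counts. Levels below are CPM after TMM scaling between libraries, and differences are log2 fold changes from edgeR's quasi-likelihood test with p adjusted by Benjamini-Hochberg over the 18088 genes tested. A gene passed at an adjusted p under 0.05. PHF12 fell to 54.0% of its control level with its siRNA (a log2 difference of -0.89, adjusted p = 1.88e-14) and SUDS3 to 19.9% with its own (a log2 difference of -2.33, adjusted p = 1.82e-28). SUDS3 also fell with the PHF12 siRNA (a log2 difference of -0.46) and PHF12 rose with the SUDS3 siRNA (0.30). All 8 HEK293 markers examined had counts in every library, though PAX2, a kidney lineage factor, reached only 0.951 to 2.32 CPM. Their levels moved with the groups. With the PHF12 siRNA 4 of the 8 rose and 2 fell, 50% and 25%, against 14.8% and 17.1% of all genes tested. After the SUDS3 siRNA 1 rose and 3 fell, 12.5% and 37.5%, against 19.6% and 19.2%. KRT8, a keratin gene that overlaps KRT18 on the opposite strand, had log2 fold changes of 0.83 and -0.61 in that order. EYA1, a developmental cofactor, had 0.61 and -0.45, and the intermediate filament gene VIM 0.16 and -0.32. NEFM went the other way, with -0.215 and 0.40. All of these passed the threshold. KRT18 fell (-0.22) and NEFL rose (0.32) with the PHF12 siRNA, and neither passed with the SUDS3 siRNA. The summed level of the 8 was 1219 to 1223 CPM in controls, 1278 to 1323 in PHF12 knockdowns and 1160 to 1170 in SUDS3 knockdowns, and its part in the results was not tested. Of 10 markers of other cell types, PTPRC, CD3E, HBB and INS were at 0 in all 9 libraries. The summed level of those 10 was 15.9 to 17.1 CPM in controls, 22.04 to 24.04 in PHF12 knockdowns and 24.6 to 28.2 in SUDS3 knockdowns, most of it COL1A1, and its part in the results was not tested. In RNA from whole cultures, fewer cells with a transcript and less transcript per cell cannot be told apart.

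Levels were compared between genes as CPM per kilobase of exon, computed from the counts and GENCODE 29 lengths, because the deposited TPM values did not follow gene length. Dividing counts by TPM gives, up to 1 constant, the length each gene was scaled by. Over 10710 genes with at least 200 counts in every library, that implied length was unrelated to the exonic length (Pearson's r = -0.0003 on log2 values, Spearman's rho = 0.0057, across genes, which are not independent replicates). HMOX1, with 2405 exonic bases and 49.3 CPM in controls, is listed at 295.7 TPM, whereas KEAP1, with 3761 exonic bases and 66.9 CPM, is listed at 9.10 TPM. After each library was centred on its median ratio, count and TPM kept the same ratio within a gene to 0.000477 on the log2 scale. Apart from a factor per library, the TPM table therefore gives the same differences between groups as the counts, but not the order of genes.

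**Figure D1:**
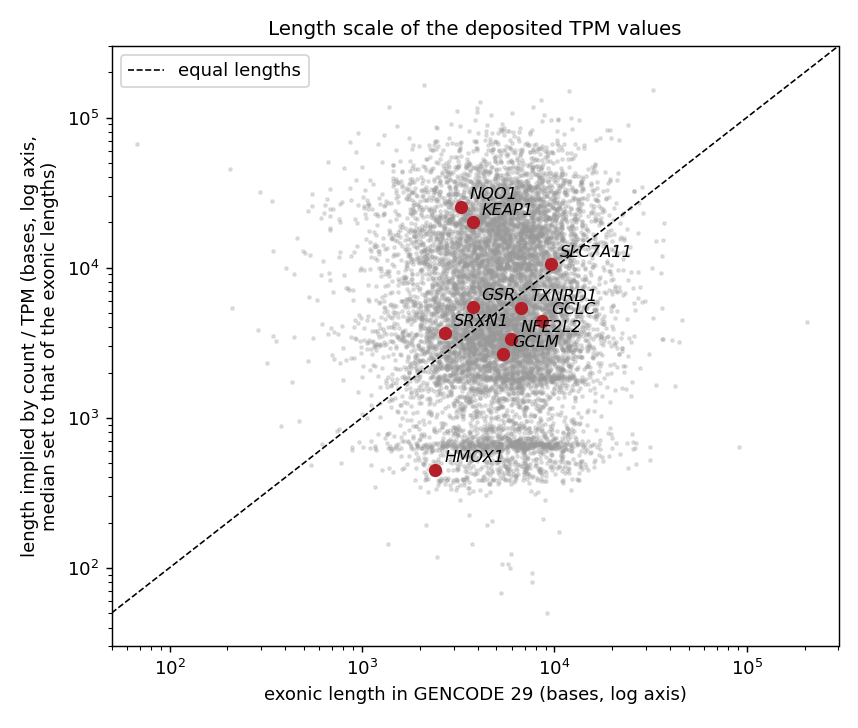
Length implied by the ratio of count to TPM, its median set to that of the exonic lengths (y axis, bases, log axis) against exonic length in GENCODE 29 (x axis, bases, log axis) for 10710 genes (grey) and the 10 genes named (red); the dashed line marks equal lengths. The cloud does not follow the line (r = -0.0003), and NQO1, KEAP1 and HMOX1 lie far from it.

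In controls, TXNRD1 had the highest level, 29.4 ± 1.43 CPM per kilobase (SD, n = 3), followed by GSR (24.0 ± 0.231), HMOX1 (20.5 ± 0.729), KEAP1 (17.8 ± 0.423) and NFE2L2 (11.9 ± 0.532). Lower levels were those of GCLM (9.62 ± 0.176 CPM per kilobase), GCLC (7.35 ± 0.0872), SLC7A11 (5.64 ± 0.512) and NQO1 (2.51 ± 0.232). No neighbours in this order overlapped among the control libraries. With the PHF12 siRNA, GSR stood between GCLM and GCLC at 7.28 ± 0.695 CPM per kilobase, and the ranges of SLC7A11 and NQO1 overlapped. With the SUDS3 siRNA, GSR was again next to TXNRD1, at 23.1 ± 0.586, and the ranges of KEAP1 and HMOX1 overlapped.

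SRXN1 (ENSG00000271303, chr20:646615-653370, minus strand) could not be measured. It had 0 to 20 counts per library, and 85.0% of its exonic bases are shared, on the same strand, with the annotated gene AL121758.1, which had 0 counts in all 9 libraries. No source used here gives how reads lying in both genes were counted, and the part of the overlap in these counts was not tested. SRXN1 is counted below as not passing. Gene positions are those of GENCODE 29 on GRCh38. NFE2L2 shares 17.6% of its exonic bases with the same-strand transcript AC019080.1 (16 to 64 counts), and NQO1 shares 17.7% with the opposite-strand AC092115.2 (0 counts).

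**Figure D2:**
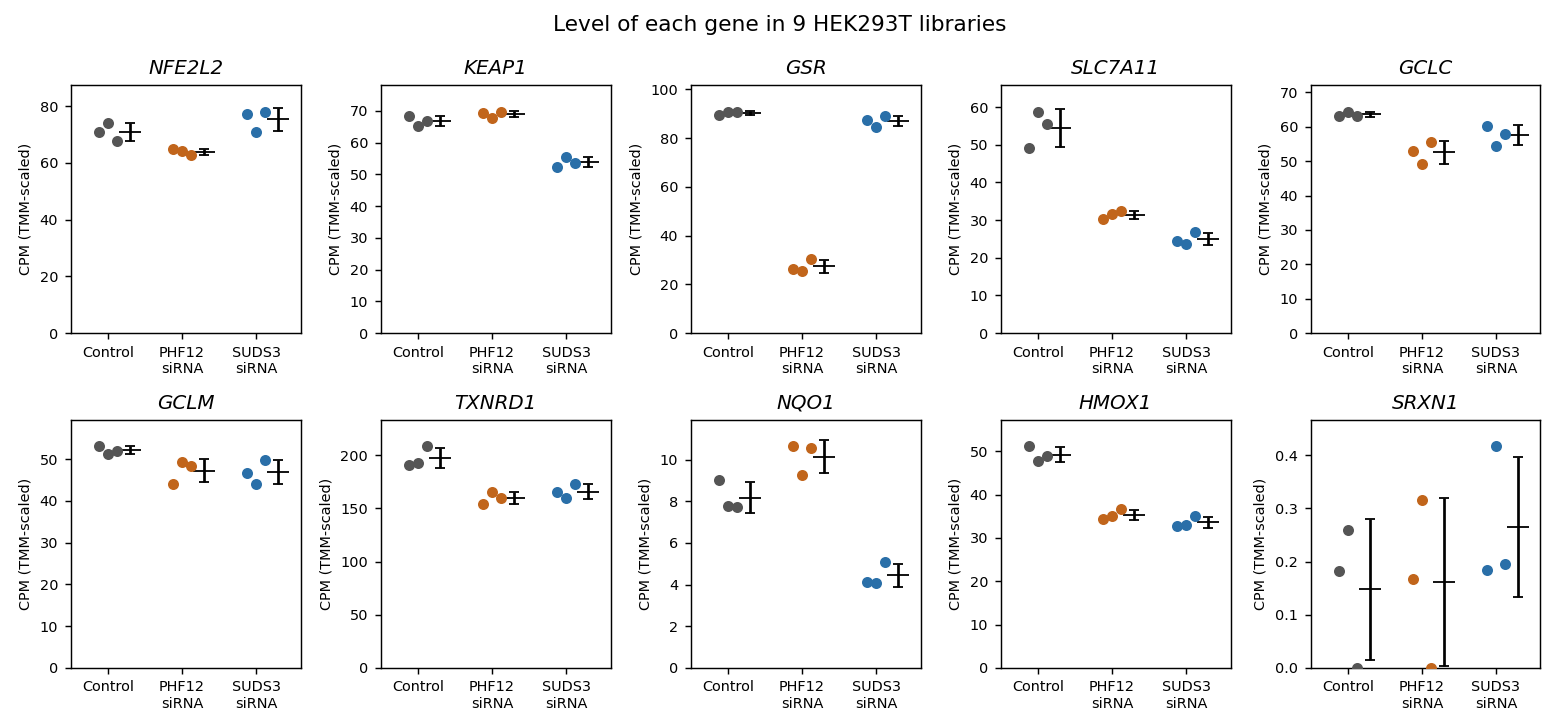
TMM-scaled CPM (y axis, each panel from 0) of the 10 genes in each library (points) by siRNA group, with the mean ± SD of 3 libraries (black). GSR is low with the PHF12 siRNA, NQO1 and KEAP1 with the SUDS3 siRNA, and SLC7A11, HMOX1 and TXNRD1 with both.

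Of the 10 genes, 6 fell with the PHF12 siRNA (GSR, SLC7A11, HMOX1, TXNRD1, GCLC and NFE2L2), 0 rose and 4 did not pass. Among all genes tested, 17.1% fell and 14.8% rose, 31.9% in all. At an unadjusted p under 0.05 edgeR had 1 gene higher, NQO1, and DESeq2 called 0 higher after adjustment. The median log2 fold change was -0.21, against 0.00 over all genes tested. In 8 of the 10 genes the 3 knockdown libraries lay outside the range of the 3 controls, as they did in 42.1% of all genes tested. The SUDS3 siRNA was followed by a fall of 7 of the 10 (SLC7A11, NQO1, HMOX1, KEAP1, TXNRD1, GCLM and GCLC), 0 rose and 3 did not pass, where 19.2% of all genes fell and 19.6% rose, 38.7% in all. No gene was higher at an unadjusted p under 0.05 (0 in edgeR, and 0 after adjustment in DESeq2). The median was -0.20, against -0.02 over all genes, and ranges did not overlap in 8 of the 10, against 46.6% of all genes. Both comparisons use the same 3 control libraries. The 10 genes were chosen with earlier results of these data known. Their shares and medians beside those of all genes are therefore descriptions, not independent evidence. Compared directly, 3 of the 10 genes were higher with the SUDS3 than with the PHF12 siRNA (GSR, NFE2L2 and GCLC) and 3 were lower (NQO1, KEAP1 and SLC7A11), where 22.7% of all genes were higher and 21.1% lower, 43.9% in all. Ranges of the 2 knockdowns did not overlap in 5 of the 10, against 51.8% of all genes. All genes tested include genes with very few counts, such as SRXN1, in which a difference is harder to call. Shares among genes of like level were not computed. With upper-quartile scaling, rises made up 56.9% of all calls in the PHF12 comparison and 44.2% in the SUDS3 comparison, against 46.4% and 50.5% with TMM, and the medians of the 10 genes were -0.17 and -0.23.

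**Figure D3:**
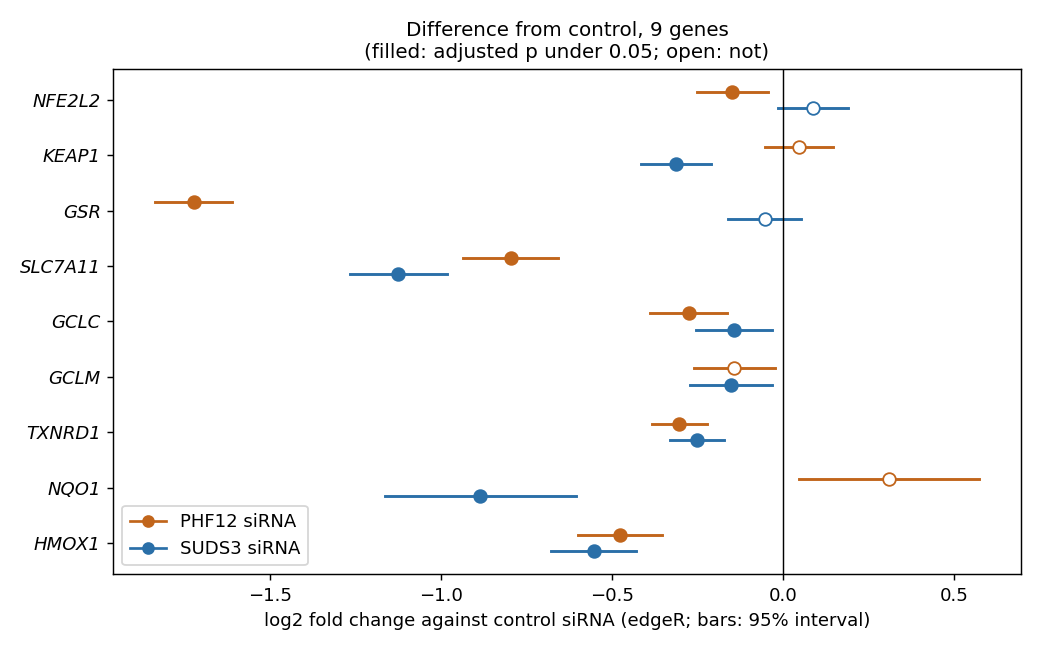
Log2 fold change against the control siRNA (x axis) of 9 genes, all except SRXN1, with 95% intervals, for the PHF12 siRNA (orange) and the SUDS3 siRNA (blue); filled points passed at an adjusted p under 0.05. GSR lies at -1.72 in orange and at -0.05 in blue, and NQO1 lies on opposite sides of 0.

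The regulators moved separately. NFE2L2 (ENSG00000116044, chr2:177227595-177392697, minus strand) had 71.0, 74.0 and 67.7 CPM in controls, 64.9, 64.3 and 62.9 with the PHF12 siRNA and 77.4, 70.8 and 78.2 with the SUDS3 siRNA. All PHF12 libraries were below all controls, while the SUDS3 libraries overlapped the controls. It fell by 0.15 on the log2 scale with the PHF12 siRNA (SE 0.05, adjusted p = 0.0226), and with the SUDS3 siRNA its difference was 0.09 (95% interval -0.01 to 0.19, adjusted p = 0.178). The first call was lost when control replicate 1 (adjusted p = 0.0505) or 2 (0.145) or PHF12 knockdown replicate 3 (0.0833) was left out, with upper-quartile scaling (0.0988) and in limma on TPM (up to 0.0605), at log2 fold changes of -0.15 to -0.11. Without SUDS3 knockdown replicate 2, NFE2L2 passed as higher with the SUDS3 siRNA (0.14, adjusted p = 0.0427). Adjusted p over all alternatives ran from 0.014 to 0.145 for the PHF12 siRNA and from 0.0427 to 0.491 with the SUDS3 siRNA.

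KEAP1 (ENSG00000079999, chr19:10486120-10503741, minus strand), the inhibitor, had 68.6, 65.4 and 66.7 CPM in controls and 69.5, 67.9 and 69.8 with the PHF12 siRNA, which overlapped. With the SUDS3 siRNA it had 52.3, 55.6 and 53.6 CPM, below every other library. It fell to 80.5% of control there (log2 fold change -0.31, SE 0.05, adjusted p = 3.63e-06). The difference was 0.05 with the PHF12 siRNA (95% interval -0.05 to 0.15, adjusted p = 0.546). Between the knockdowns, KEAP1 was lower with the SUDS3 siRNA (a log2 difference of -0.36, adjusted p = 1.64e-07) and NFE2L2 was higher (0.24, adjusted p = 0.000176).

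GSR (ENSG00000104687, chr8:30678061-30727999, minus strand), glutathione reductase, changed most. It had 89.3, 90.9 and 90.7 CPM in controls, 26.1, 25.6 and 30.4 with the PHF12 siRNA and 87.3, 84.7 and 89.0 with the SUDS3 siRNA. The PHF12 libraries stood far below the rest, and the highest SUDS3 library lay just under the lowest control. GSR fell to 30.3% of control with the PHF12 siRNA (a log2 difference of -1.72, SE 0.06, adjusted p = 8.79e-24), rank 94 from the lowest of 18088 fold changes. Its log2 fold change was -0.05 with the SUDS3 siRNA (95% interval -0.16 to 0.05, adjusted p = 0.47). The difference between the knockdowns passed (1.67, SE 0.06, adjusted p = 1.16e-23).

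SLC7A11 (ENSG00000151012, chr4:138164097-138242349, minus strand), the cystine carrier, fell with both siRNAs. It had 49.1, 58.8 and 55.4 CPM in controls, 30.3, 31.5 and 32.3 with the PHF12 siRNA and 24.5, 23.7 and 26.8 with the SUDS3 siRNA, and the 3 groups did not overlap. The PHF12 siRNA left 57.6% (log2 fold change -0.80, SE 0.07, adjusted p = 6.49e-12) and the SUDS3 siRNA 45.9% (-1.12, SE 0.07, adjusted p = 1.42e-15). It was lower with the SUDS3 than with the PHF12 siRNA (a log2 difference of -0.33, SE 0.07, adjusted p = 0.000185).

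The subunits of the glutamate-cysteine ligase changed less. GCLC (ENSG00000001084, chr6:53497341-53616970, minus strand), the catalytic subunit, had 63.3, 64.4 and 63.0 CPM in controls, 52.9, 49.1 and 55.6 with the PHF12 siRNA and 60.3, 54.5 and 58.0 with the SUDS3 siRNA. It fell with the PHF12 siRNA (a log2 difference of -0.28, SE 0.05, adjusted p = 0.000121). Its fall after the SUDS3 siRNA passed narrowly (-0.14, SE 0.05, adjusted p = 0.0355), as did the difference between the knockdowns (0.13, adjusted p = 0.049). GCLM (ENSG00000023909, chr1:93885205-93909456, minus strand), the modifier subunit, had 53.1, 51.2 and 52.1 CPM in controls, 44.1, 49.3 and 48.3 with the PHF12 siRNA and 46.8, 44.1 and 49.9 with the SUDS3 siRNA. Both knockdown groups lay below the controls and overlapped each other. GCLM passed with the SUDS3 siRNA (-0.15, SE 0.06, adjusted p = 0.0388) and not with the PHF12 siRNA (-0.14, 95% interval -0.26 to -0.02, adjusted p = 0.0617), and the knockdowns differed by -0.01 (95% interval -0.13 to 0.11). The GCLC call of the SUDS3 siRNA ended in 9 of 18 alternatives and the GCLM call in 10 of 18, with adjusted p of 0.0112 to 0.259 and 0.0133 to 0.283. The GCLC call ended without any 1 control, SUDS3 knockdown replicate 2 or 3, and the GCLM call without any 1 control, SUDS3 knockdown replicate 1 or 2. Without SUDS3 knockdown replicate 2 the log2 fold changes were -0.09 and -0.10. GCLM passed with the PHF12 siRNA without PHF12 knockdown replicate 2 (-0.18, adjusted p = 0.0461), and the GCLC difference between knockdowns ended in 15 of 18 alternatives, with adjusted p up to 0.359. The libraries whose absence ended it were the 3 controls, PHF12 knockdown replicates 1 and 2 and SUDS3 knockdown replicates 1 and 3, with log2 fold changes of 0.09 without PHF12 knockdown replicate 2 or SUDS3 knockdown replicate 1.

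TXNRD1 (ENSG00000198431, chr12:104215779-104350305, plus strand), the cytosolic thioredoxin reductase, had 191.0, 192.8 and 208.5 CPM in controls, 154.3, 165.4 and 160.2 with the PHF12 siRNA and 165.2, 159.5 and 172.8 with the SUDS3 siRNA. It fell to 81.0% (log2 fold change -0.30, SE 0.04, adjusted p = 9.92e-08) and 84.0% (-0.25, SE 0.04, adjusted p = 2.74e-06) of control. The knockdowns overlapped and differed by 0.05 (95% interval -0.03 to 0.13).

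HMOX1 (ENSG00000100292, chr22:35380361-35394214, plus strand), haem oxygenase 1, had 51.2, 47.7 and 48.9 CPM in controls, 34.4, 35.1 and 36.7 with the PHF12 siRNA and 32.65, 32.95 and 35.11 with the SUDS3 siRNA. It fell to 71.9% (log2 fold change -0.48, SE 0.06, adjusted p = 6.49e-08) and 68.1% (-0.55, SE 0.06, adjusted p = 2.97e-09) of control. The 2 knockdowns overlapped and differed by -0.08 (95% interval -0.20 to 0.05).

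NQO1 (ENSG00000181019, chr16:69706996-69726951, minus strand), the quinone reductase, had 9.05, 7.78 and 7.71 CPM in controls, 10.6, 9.25 and 10.6 with the PHF12 siRNA and 4.13, 4.09 and 5.10 with the SUDS3 siRNA. The 3 groups did not overlap, with SUDS3 libraries lowest and PHF12 libraries highest. It fell to 54.3% of control with the SUDS3 siRNA (a log2 difference of -0.88, SE 0.14, adjusted p = 2.19e-06). For the PHF12 siRNA the log2 fold change was 0.31 (95% interval 0.05 to 0.57, adjusted p = 0.0663). That rise passed in 4 of 18 alternatives, among them counts divided by 4 (adjusted p = 0.0366) and the fit without control replicate 1 (0.39, adjusted p = 0.0456), in a range of 0.0352 to 0.195. The knockdowns differed by -1.20 (SE 0.14, adjusted p = 2.64e-09).

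As a description over the 9 libraries, the protein-coding genes whose log2 CPM followed GSR most closely, among 11681, were CALD1, an actin-binding protein (Pearson's r = 0.998), HMGA2, a chromatin architectural protein (r = 0.997), and HIPK2, a nuclear kinase (r = 0.997). Closest to NQO1 were FLT4 (r = 0.992), ZNF772 (r = 0.991) and BRD2 (r = 0.989), and closest to SLC7A11 were ENPP4 (r = 0.994), SNRPD1 (r = 0.993) and ZNF678 (r = 0.992). Within the 10 genes, NQO1 followed KEAP1 (r = 0.964) and SLC7A11 followed HMOX1 (r = 0.959), while NFE2L2 and KEAP1 ran in opposite directions (r = -0.80). These values rest on the 3 group means, which the libraries share. A correlation does not measure size. With the PHF12 and SUDS3 siRNAs, log2 fold changes were -0.80 and -1.12 for SLC7A11 and -0.61 and -0.90 for ENPP4. They were -0.15 and -0.22 for SNRPD1 and -0.86 and -1.23 for ZNF678. NQO1 had 0.31 and -0.885, FLT4 0.15 and -0.42, ZNF772 0.23 and -0.67, and BRD2 0.10 and -0.25.

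The other genes of the pathway were taken from 4 lists of 108 genes, of which 101 were tested, and they did not share one direction. The PHF12 siRNA gave 14 rises and 28 falls, and 59 did not pass (median log2 fold change -0.03), and with the SUDS3 siRNA 37 rose, 26 fell and 38 did not pass (median 0.04). The corresponding medians over all genes tested were 0.00 and -0.02. As shares, 13.9% of the list genes rose and 27.7% fell with the PHF12 siRNA, against 14.8% and 17.1% of all genes tested. After the SUDS3 siRNA 36.6% rose and 25.7% fell, against 19.6% and 19.2% of all genes. The lists, too, were chosen with earlier results of these data known, so these shares are descriptions.

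**Figure D4:**
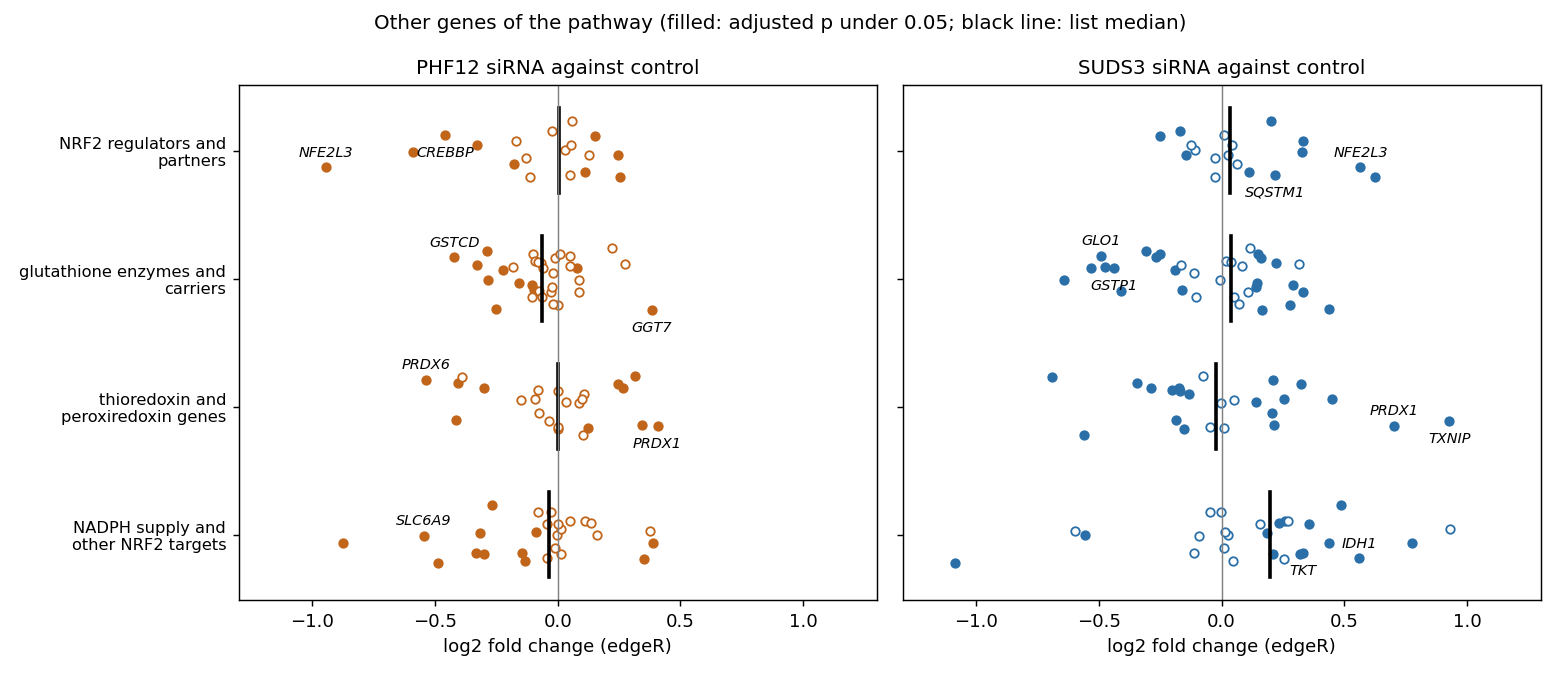
Log2 fold change (x axis) of the tested genes of the 4 pathway lists (rows, points spread vertically to be visible) with the PHF12 siRNA (left) and the SUDS3 siRNA (right); filled points passed at an adjusted p under 0.05, black lines are list medians, and the genes described in the text are labelled. NFE2L3 lies at -0.95 at left and at 0.57 at right.

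Among 18 regulators and partners of NRF2, 4 rose and 5 fell with the PHF12 siRNA (median 0.00), and 7 rose and 3 fell with the SUDS3 siRNA (median 0.03). These are 22.2% and 27.8% of the list, where 14.8% and 17.1% of all genes rose and fell, and 38.9% and 16.7%, where 19.6% and 19.2% did; the last share is near that of all genes. NFE2L3, a relative of NRF2, had 24.8 ± 0.834 CPM in controls, 12.9 ± 0.289 with the PHF12 siRNA (a log2 difference of -0.95, adjusted p = 2.2e-12) and 36.7 ± 1.84 with the SUDS3 siRNA (0.57, adjusted p = 8.56e-08). CREBBP, an acetyltransferase and coactivator of NRF2, fell with the PHF12 siRNA (-0.46, adjusted p = 6.26e-10). SQSTM1, an autophagy receptor that binds KEAP1, rose with the SUDS3 siRNA (0.22, adjusted p = 4.57e-06). Rises with the PHF12 siRNA numbered 2 without control replicate 2, and falls with the SUDS3 siRNA numbered 1 without control replicate 3 or SUDS3 knockdown replicate 2.

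Of 35 glutathione enzymes and carriers, 33 were tested. With the PHF12 siRNA 2 rose and 9 fell (median -0.06), a split that was 4 and 4 with upper-quartile scaling and 4 and 5 without control replicate 1. Leaving out control replicate 2 or 3, or replicate 1 or 2 of the PHF12 knockdown, gave 1 rise. GSTCD, which has a glutathione transferase domain, fell (-0.42, adjusted p = 2.77e-06) and GGT7, a member of the gamma-glutamyltransferase family, rose (0.38, adjusted p = 4.27e-06). The SUDS3 siRNA gave 10 rises and 11 falls (median 0.04). Rises and falls were 6.06% and 27.3% of the list in the PHF12 comparison (all genes 14.8% and 17.1%) and 30.3% and 33.3% in the SUDS3 comparison (all genes 19.6% and 19.2%). GLO1, which detoxifies methylglyoxal with glutathione, fell from 634.8 ± 10.4 to 451.9 ± 13.8 CPM (-0.49, adjusted p = 2.35e-16), and the glutathione transferase GSTP1 fell from 358.0 ± 6.22 to 263.9 ± 4.70 CPM (-0.44, adjusted p = 3.13e-14).

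All 24 genes of thioredoxins, peroxiredoxins and their partners were tested. With the PHF12 siRNA 6 rose and 4 fell (median 0.00), and with the SUDS3 siRNA 9 rose and 10 fell (median -0.02). The PHF12 rises were 25% of the list against 14.8% of all genes, and the falls 16.7% against 17.1%, which is near the share of all genes. The SUDS3 rises and falls were 37.5% and 41.7%, against 19.6% and 19.2%. PRDX1, an abundant cytosolic peroxiredoxin and NRF2 target, rose from 451.2 ± 4.19 CPM in controls to 598.0 ± 4.58 with the PHF12 siRNA (0.41, adjusted p = 3.82e-15) and 734.1 ± 6.54 with the SUDS3 siRNA (0.70, adjusted p = 9.15e-22), against the direction of most of the 10 genes. PRDX6 fell with the PHF12 siRNA (-0.54, adjusted p = 4.54e-17) and rose with the SUDS3 siRNA (0.21, adjusted p = 3.76e-07). TXNIP, the inhibitor of thioredoxin, rose from 41.2 ± 4.05 to 78.3 ± 3.03 CPM with the SUDS3 siRNA (0.93, adjusted p = 4.21e-15).

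Of 31 genes of NADPH supply and other NRF2 targets, 26 were tested. With the PHF12 siRNA 2 rose and 10 fell (median -0.03), and with the SUDS3 siRNA 11 rose and 2 fell (median 0.20). In the PHF12 comparison 7.69% of the list rose and 38.5% fell (all genes 14.8% and 17.1%), and in the SUDS3 comparison 42.3% rose and 7.69% fell (all genes 19.6% and 19.2%). PHF12 siRNA rises numbered 4 with upper-quartile scaling, and 1 when control replicate 2 or 3 or the first PHF12 knockdown library was left out. The glycine carrier SLC6A9 fell with the PHF12 siRNA (-0.55, adjusted p = 5.86e-06). IDH1 (0.56, adjusted p = 1.45e-11) and TKT (0.33, adjusted p = 2.27e-11), both of NADPH-linked metabolism, rose with the SUDS3 siRNA.

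An siRNA can lower transcripts other than its target through short matches in their 3' UTRs. An earlier scan of these same fold changes picked the hexamers AATCAC for the PHF12 siRNA and TACATT for the SUDS3 siRNA. The counts here are therefore descriptions and not independent evidence. Whether either hexamer matches the sequence of its siRNA was not tested. Over genes tested with an annotated 3' UTR, AATCAC was in the longest 3' UTR of 4231 (30.7%), of which 38.2% fell with the PHF12 siRNA, against 13.5% of the 9539 without it. TACATT was in 5633 (40.9%), of which 31.4% fell with the SUDS3 siRNA, against 17.2% of the 8137 without it. Genes with the hexamers had longer 3' UTRs (medians of 2894 against 940 and of 2639 against 806 bases).

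Among the 10 genes, AATCAC was in the 3' UTRs of GSR (1 match), SLC7A11 (5), GCLC (2), GCLM (1), NQO1 (1) and SRXN1 (1). Of these, GSR, SLC7A11 and GCLC fell with the PHF12 siRNA, while HMOX1, TXNRD1 and NFE2L2 fell without a match. TACATT was in SLC7A11 (11 matches), GCLC (2), GCLM (2), TXNRD1 (2) and SRXN1 (1). The 3' UTRs searched ran from 532 bases in KEAP1 and 616 in HMOX1 to 7859 in SLC7A11, and a longer one has more room for matches. SLC7A11, GCLC, GCLM and TXNRD1 fell with the SUDS3 siRNA and have a match, and NQO1, HMOX1 and KEAP1 fell without one. GSR has 1 AATCAC and no TACATT. HMOX1 has neither hexamer and fell with both siRNAs. The part of these matches in the falls was not tested. Some are shown, with 10 bases on either side, to set genes that fell beside GCLM and NQO1, which hold AATCAC and did not pass as lower with the PHF12 siRNA. Capitals mark the hexamer, along the transcript, from GENCODE 29 transcripts (GRCh38). The windows are chr4:138171039-138171064 for the first AATCAC of SLC7A11, chr6:53498271-53498296 and chr6:53498186-53498211 for GCLC, chr1:93886008-93886033 for GCLM, chr16:69710606-69710631 for NQO1, chr4:138167755-138167780 for a TACATT of SLC7A11 (all minus strand) and chr12:104349370-104349395 for the first TACATT of TXNRD1 (plus strand).
SLC7A11 AATCAC: acatgagagaAATCACcaacaaagaa
GCLC AATCAC, first: gtctacattaAATCACttgaatccat
GCLC AATCAC, last: caattggaatAATCACttggtcacct
GCLM AATCAC: ctagaaattgAATCACaaataatagc
NQO1 AATCAC: atgttctattAATCACctctctgtag
SLC7A11 TACATT: taatatgttgTACATTagtgctgatc
TXNRD1 TACATT: tttctaagacTACATTagtaggaaaa
The first GCLC window also holds a TACATT, with 1 base between it and the AATCAC.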

How the data were processed

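RNA of 9 libraries was made into stranded poly-A libraries, per the labels' protocols. Trimmomatic 0.36, HISAT2 2.1.0, HTSeq and GRCh38 are named in the submitters' processing notes. No source used here gives the strand setting, the annotation or the step that made TPM. Per gene, the authors deposited 1 table of counts and 1 of TPM. Of counts above 0, 96.1% were multiples of 4, for which no source gives a reason, so counts divided by 4 were an alternative. All Ensembl ids were matched to GENCODE 29.

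Counts were tested as deposited in edgeR 4.0.16 (R 4.3.3) with TMM scaling, filterByExpr with a minimum count of 10, 3 group means over all 9 libraries and the quasi-likelihood test. Alternatives were upper-quartile and DESeq2 scaling, DESeq2 1.42.0, no filter, counts divided by 4, only the groups compared, a replicate block, limma 3.58.1 on log2(TPM + 1) and log2(TPM + 0.1), and each library left out. The test was checked on simulated counts drawn independently for each library. Those counts carried neither the excess of multiples of 4 nor any shared origin of replicates, so the check does not cover them. No libraries were identical, and none was left out.

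The members, lists and hexamers were chosen with earlier results of these data known. Named were all 10 genes, both siRNA targets, the 2 genes of smallest p in each list and knockdown (average log2 CPM 1 or more), and, for the 3 genes of widest range, the 3 most correlated protein-coding genes. The lists cover NRF2 regulators, glutathione, thioredoxin and NADPH genes, HEK293 markers and markers of other cell types. A gene that this rule names is not reported here.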

Additional observations from a re-analysis of the deposited data

Results flagged for a closer look

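The results below stood out because the response to the SUDS3 siRNA differed from that to the PHF12 siRNA in a direct edgeR comparison of the knockdown groups, with p adjusted over all genes. Each value is a log2 fold change of the SUDS3 against the PHF12 knockdown. Of the 10 genes, 3 were higher with the SUDS3 siRNA (GSR 1.67, NFE2L2 0.24 and GCLC 0.13). Another 3 were lower (NQO1 -1.20, KEAP1 -0.36 and SLC7A11 -0.33), where 22.7% of all genes were higher and 21.1% lower. The GCLC call was narrow (adjusted p = 0.049 in edgeR) and ended in 15 of 18 alternatives.

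Of the other pathway genes, NFE2L3 (1.51), TXNIP (0.96), PRDX6 (0.75) and IDH1 (0.60) were higher with the SUDS3 siRNA. TKT (0.48), CREBBP (0.47), SLC6A9 (0.45), PRDX1 (0.30) and SQSTM1 (0.17) were higher too. GLO1 (-0.54), GSTP1 (-0.52) and GGT7 (-0.22) were lower. These genes had been named for a small p in a knockdown against control, so they do not stand for their lists. Of the 101 list genes tested, 39.6% were higher and 24.8% lower, against 22.7% and 21.1% of all genes. The siRNA targets differed as labelled, with PHF12 at 1.19 and SUDS3 at -1.87.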

How the results depend on the processing

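Of 534 values of the 10 genes under alternatives, 480 kept their direction and side of the threshold, 40 lost the call, 6 gained one and 8 changed sign, none of these 8 a called value. Numbers of genes called stayed within 1.5 times. With the PHF12 siRNA, 1 of the 10 genes (NQO1) was called higher with upper-quartile scaling, with counts divided by 4 and with only the 2 groups compared, and leaving out a library gave 0 to 1. With the SUDS3 siRNA, leaving out a library also gave 0 to 1 (NFE2L2). Leaving out a library in turn moved the log2 fold change with the PHF12 siRNA from -0.8014 to 0.7753 for SRXN1 (-0.4325 without control replicate 3), -0.1075 to 0.0346 for TXNIP and -0.078 to 0.0032 for IDH1 (0.0021 without control replicate 2), and with the SUDS3 siRNA from -0.0167 to 0.0343 for CREBBP (-0.0032 without control replicate 2). Between the knockdowns GCLM ran from -0.0587 to 0.0366 (0.0238 and 0.007 without PHF12 knockdown replicate 2 or 3). Upper-quartile scaling turned the sign of TXNIP (0.0044, PHF12 siRNA), CREBBP (-0.0175, SUDS3 siRNA) and TXNRD1 (-0.015, between knockdowns), and limma that of GCLM (0.0043 with either pseudocount, between knockdowns). NQO1 with the SUDS3 siRNA was at -0.34 in limma on log2(TPM + 1), where the pseudocount shrinks low values. SRXN1 was filtered out with counts divided by 4 and with only the groups compared. The cause of the other changes was not tested.

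Replicate numbers are shared in the titles. In deviations from the group means, same-numbered libraries correlated at -0.094 to 0.092 and differently numbered ones at -0.098 to 0.09. A correlation over all genes cannot exclude a pairing that touches few genes, so whether same-numbered libraries were paired is not known. With the replicate block 5848, 7073 and 7981 genes were called, against 5776, 7004 and 7937, and no call of the 10 genes changed. With 3 libraries a group, the calls of NFE2L2, GCLC and GCLM at log2 fold changes of -0.15 to 0.13 were those that leaving out 1 library ended.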
